A study of Mus musculus with 6 samples.

Results

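The Dlk1-Dio3 domain is an imprinted stretch of mouse chromosome 12 that holds one of the largest groups of miRNA genes in the genome. Its members were taken by gene name from their place in the domain: 44 miRNA genes of the 1178 in the small RNA-seq table, and 7 long transcripts, Dlk1, Meg3, Rtl1, Rian, Mirg, Dio3 and Dio3os. Of these 51 genes, Rtl1 and Dio3os were not analysed here, so 5 long transcripts among the 54189 RNA-seq features were described. In GENCODE vM21 on GRCm38, the domain runs from the start of Dlk1 to the end of Dio3, chr12:109452823-110281097, a length of 828.3 kb.

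In this domain the chromosome inherited from the father expresses the protein-coding genes Dlk1, Rtl1 and Dio3, and the chromosome inherited from the mother expresses the non-coding transcripts Meg3, Rian and Mirg, the miRNAs and the C/D box snoRNAs between them. DLK1 is a membrane protein of the Notch ligand family that restrains adipocyte differentiation, RTL1 is derived from a retrotransposon and acts in placenta and fetal muscle, and DIO3 inactivates thyroid hormone. Drosha cuts the hairpins out of the long nuclear transcripts, Dicer cuts the mature miRNA out of each hairpin, and bases 2 to 8 of the mature miRNA, its seed, pair with target mRNAs.

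RNA-seq and small RNA-seq were run on Achilles tendon of mice of 3 genotypes at 4 weeks of age. Control mice were Dicer f/f without Cre, ScxHt mice were ScxCre/+ knock-in with Dicer +/+, and Dicer cKO mice were ScxCre/+ knock-in with Dicer f/f, so that Control and Dicer cKO share the floxed alleles and ScxHt and Dicer cKO share the Cre allele. Cre is driven from the Scx locus, which is active in tendon cells, and muscle, nerve, blood and vessel cells in the dissected tissue are not its target. Each genotype gave 1 library per assay, 6 libraries in all, and the labels name the same sample for both assays of a genotype.

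With 1 library per genotype no difference had a replicate check and no test between genotypes was possible, so no p-value was computed. A ratio is the quotient of read counts after division by DESeq2 size factors of the 2 libraries compared, and its 95% exact interval covers counting error only. The mean of the 2 normalised read counts is the baseMean. Features with a baseMean above 15 in small RNA-seq or above 50 in RNA-seq were analysed, and a ratio above 1.67 or below 0.60 was counted as past the fold limit.

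Total counts were 14959399 to 16244232 in RNA-seq and 8435829 to 10986541 in small RNA-seq. The targeted gene Dicer1, counted over the whole gene and so also outside any deleted part, had 1919 reads in Control, 2025 in ScxHt and 1621 in Dicer cKO, a Dicer cKO/Control ratio of 0.877 (0.821 to 0.938). This gene count does not measure recombination of the floxed alleles. All 10 tendon markers were detected in each library and none was at 0. Their summed level was 136035 RPM (counts scaled to the same library total) in Control, 119596 in ScxHt and 78179 in Dicer cKO. Col1a1 and Col1a2 made up most of this sum, with 77647 and 43627 RPM in Control. By single markers, 7 of the 10 had a ScxHt/Control ratio above 1 and 3 below, with a median of 1.19. None had a Dicer cKO/Control ratio above 1, with a median of 0.542. All 18 skeletal muscle markers were present as well, with 65820 RPM in Control, 36637 in ScxHt and 112814 in Dicer cKO. Schwann cell markers were at 233, 305 and 709, macrophage markers at 257, 482 and 204, and endothelial markers at 670, 494 and 781 RPM. Erythroid markers were at 189, 194 and 461 RPM, with all 5 that were analysed above the upper fold limit in Dicer cKO/Control and a summed ratio of 2.33. Cartilage and bone markers were at 552, 723 and 304 RPM, with Bglap at 0 in every library and Sp7 at 0 in Control and Dicer cKO. Adipocyte markers were at 1007, 1207 and 1069 RPM. Of 10 miRNA processing genes, all 10 were analysed, and 0 were past a fold limit in Dicer cKO/Control or Dicer cKO/ScxHt, and 1 in ScxHt/Control, Prkra at 1.71 (1.32 to 2.24). Of all RNA-seq features, 3.92% lay above the upper limit and 4.19% below the lower one in Dicer cKO/Control. These shares were 7.68% and 5.68% in Dicer cKO/ScxHt, and 3.04% and 4.71% in ScxHt/Control. In such bulk samples, fewer cells of a type and less RNA per cell cannot be told apart.

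The miRNAs lie in a chain between Meg3 and Dio3. Mir770 overlaps an exon of Meg3, and Mir673 and Mir493 lie between Meg3 and Rtl1. A group of 8, Mir337, Mir540, Mir665, Mir431, Mir433, Mir127, Mir434 and Mir136, lies at Rtl1 on the opposite strand to it, and the last 5 of these lie within its exon. Mir341 and Mir370 lie in introns of Rian. The largest group is a cluster of 30 hairpins from Mir379 to Mir410 in 34.7 kb, chr12:109709060-109743795, of which 19 lie upstream of the annotated start of Mirg, 8 in Mirg exons and 3 in Mirg introns. Mir1247, at the Dio3 end, is the only member on the minus strand, in an exon of Dio3os.

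RefSeq entries on GRCm38.p6 were found for all 44 members and gave 84 mature miRNAs of 19 to 26 bases with 81 different seeds. The counts are per hairpin, so the 5p and the 3p arm were not told apart. The mature miRNAs of the 5 members with the most reads are shown, with the seed in capitals, because these hairpins carry most of the reads of the domain.
mmu-miR-127-5p: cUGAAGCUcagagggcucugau
mmu-miR-127-3p: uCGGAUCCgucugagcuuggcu
mmu-miR-379-5p: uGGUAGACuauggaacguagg
mmu-miR-379-3p: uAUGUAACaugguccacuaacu
mmu-miR-411-5p: uAGUAGACcguauagcguacg
mmu-miR-411-3p: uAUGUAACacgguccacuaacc
mmu-miR-382-5p: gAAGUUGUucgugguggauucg
mmu-miR-382-3p: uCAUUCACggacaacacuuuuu
mmu-miR-434-5p: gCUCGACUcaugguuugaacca
mmu-miR-434-3p: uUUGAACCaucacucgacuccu

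Members with a ratio past a fold limit are shown next, because the comparisons between genotypes turn on them. Mir300 is set under Mir381 because their 3p arms are alike in all but 3 positions.
mmu-miR-667-5p: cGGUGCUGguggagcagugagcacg
mmu-miR-667-3p: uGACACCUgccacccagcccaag
mmu-miR-323-3p: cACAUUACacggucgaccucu
mmu-miR-495-3p: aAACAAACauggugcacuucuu
mmu-miR-665-3p: aCCAGGAGgcugaggucccu
mmu-miR-1247-5p: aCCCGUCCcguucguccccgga
mmu-miR-381-3p: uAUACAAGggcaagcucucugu
mmu-miR-300-3p: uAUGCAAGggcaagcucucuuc

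Among the entries found, 3 seeds were shared by listed members, and they joined 6 members in pairs. Mir376c, Mir487b, Mir539 and Mir485 had an entry for a single arm, so the seed of their other arm was not compared. The 3p arms of Mir379 and Mir411, printed above, share the seed AUGUAAC. The other pairs are Mir376b with Mir376c and Mir494 with Mir410.
mmu-miR-376b-5p: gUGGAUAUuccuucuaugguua
mmu-miR-376c-5p: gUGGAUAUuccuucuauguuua
mmu-miR-494-5p: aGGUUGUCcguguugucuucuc
mmu-miR-410-5p: aGGUUGUCugugaugaguucg

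Counting positions from 1 at the 5′ end and giving the base of the member named first, miR-379-3p and miR-411-3p differ by U10C and U22C, outside the seed, and miR-376b-5p and miR-376c-5p differ by G19U alone. miR-381-3p and miR-300-3p differ by A4G inside the seed and by G21U and U22C at the other end. Reads of such near-identical arms may have been divided or counted at both loci, which the sources used here do not describe. The counts of these pairs are therefore uncertain.

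The Dlk1-Dio3 miRNAs held a similar share of the small RNA in all 3 libraries. They had 183509 reads in Control, 149248 in ScxHt and 149750 in Dicer cKO, which is 1.67% (95% exact interval 1.66 to 1.68), 1.77% (1.76 to 1.78) and 1.78% (1.77 to 1.78) of all small RNA-seq counts. The direction of this small difference depended on the scaling. With size factors the summed Dicer cKO/Control ratio was 0.935 (0.929 to 0.942) and the ScxHt/Control ratio 0.916 (0.910 to 0.923), whereas with total counts they were 1.06 and 1.06. Dicer cKO and ScxHt had a summed ratio of 1.003 (0.996 to 1.011) to each other.

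A few hairpins carried this share. The 5 members with the most reads held 77.2% of the reads of the domain in Control, 77.4% in ScxHt and 76.5% in Dicer cKO, and the top 10 held 92.2%, 91.1% and 91.4%. The median member had 297, 278 and 282.5 reads, and 14, 13 and 14 members had more than 1000. Levels thus ran from 3 reads or fewer for Mir539 to 37432 or more for Mir127 in a library, among miRNAs of which 43 share a strand.

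**Figure D1:**
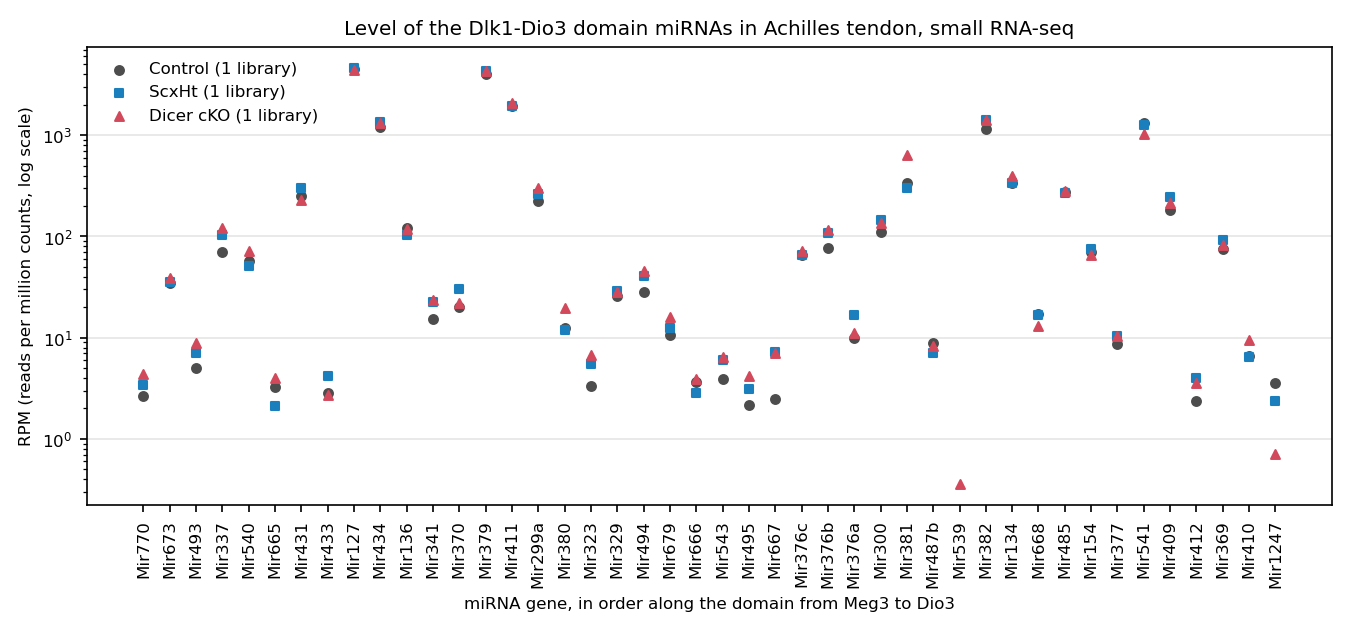
Level in RPM (log axis; small RNA-seq) of the 44 Dlk1-Dio3 miRNA genes in order along the domain, with 1 point for each of the Control, ScxHt and Dicer cKO libraries and members at 0 reads left out. Mir127, Mir379 and Mir411 were highest in all 3 libraries, and for most members the 3 points lie close together.

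Mir127, which lies within the Rtl1 exon on the opposite strand and is fully complementary to Rtl1 mRNA, was the most abundant member. It had 49861 reads in Control, 39081 in ScxHt and 37432 in Dicer cKO, at rank 26 among all small RNA-seq features in each library. Its Dicer cKO/Control ratio was 0.860 (0.849 to 0.872) and its ScxHt/Control ratio 0.883 (0.871 to 0.895), so that with size factors both libraries with Cre were below Control by more than counting error, whereas by RPM ScxHt, at 4632, was above Control, at 4538. Mir434 lies in the same exon of Rtl1. It had 13333, 11429 and 11165 reads, with ratios to Control of 0.960 in Dicer cKO and 0.966 in ScxHt.

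Mir379, the first hairpin of the large cluster, had 44626 reads in Control, 36623 in ScxHt and 36360 in Dicer cKO, and its ratios to Control were 0.934 (0.921 to 0.947) in Dicer cKO and 0.925 (0.912 to 0.938) in ScxHt. The next hairpin, Mir411, which shares a 3p seed with it, had 21234, 16581 and 17656 reads and ratios of 0.953 and 0.880. With size factors both stood slightly below Control in both other libraries, and with total counts both stood above Control in both. Mir382, in an exon of Mirg, had 12551, 11810 and 12014 reads and with size factors was the only member among these 5 with ratios above 1, 1.10 in Dicer cKO and 1.06 in ScxHt. With total counts as the scaling, the ratios of Mir434 also lay above 1 in both libraries, and for Mir127 only that of Dicer cKO stayed below 1.

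Dicer cKO was then set against Control, which has the same floxed Dicer alleles and lacks the ScxCre knock-in allele, so that Cre deletion of Dicer and the knock-in itself cannot be told apart in this comparison. Of the 44 miRNAs, 43 had a baseMean above 15. Only Mir539 did not, with 3 reads in Dicer cKO and 0 in Control and ScxHt, where a count of 0 allows up to 3 reads. Among the 43, 3 members lay above the upper fold limit, Mir667, Mir323 and Mir495, and 1 below the lower limit, Mir1247. Over all 334 features analysed, 8.38% lay above the upper limit and 4.19% below the lower limit, against 6.98% and 2.33% of the members. The share of members past a limit was thus near the background in either direction. Their median log2 ratio was 0.05, beside −0.02 over all features, and the interquartile range of the members ran from −0.09 to 0.42, beside −0.29 to 0.34.

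Mir1247, in an exon of Dio3os at the far end of the domain, had 39 reads in Control, 20 in ScxHt and 6 in Dicer cKO. Dicer cKO was lowest, and its Dicer cKO/Control ratio of 0.176 (0.0610 to 0.419) was the lowest of the members, with the whole interval below the lower fold limit. The study itself picked this miRNA from these libraries, so its low ratio is not independent of that choice. Apart from these libraries, the paper reports it as significantly lower in Dicer cKO by real-time PCR in several mice per genotype. No other member had its whole interval past a fold limit against Control.

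Mir667, in the large cluster upstream of Mirg, had 27 reads in Control, 61 in ScxHt and 60 in Dicer cKO. Both libraries with Cre were alike and above Control, with ratios of 2.55 (1.59 to 4.17) in Dicer cKO and 2.55 (1.59 to 4.17) in ScxHt. Mir323 had 37, 46 and 57 reads and a Dicer cKO/Control ratio of 1.77 (1.15 to 2.75). Mir495 had 24, 26 and 35 reads and a ratio of 1.67 (0.966 to 2.94), so its interval held 1. These 3 members had fewer than 100 reads in every library, where single hairpins were measured least precisely.

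Mir381 lay next to the upper limit, at 1.666 against a limit of 1.667, and was the member with the highest Dicer cKO/Control ratio among those with more than 1000 reads. It had 3672 reads in Control, 2548 in ScxHt and 5337 in Dicer cKO, so that ScxHt was lowest and Dicer cKO highest. The Dicer cKO/Control ratio was 1.67 (1.60 to 1.74), the ScxHt/Control ratio 0.782 (0.743 to 0.823) and the Dicer cKO/ScxHt ratio 2.09 (1.998 to 2.20). Mir300, whose 3p arm is like that of Mir381 apart from a seed base and the 3′ end, had 1211, 1222 and 1159 reads, and its Dicer cKO/Control ratio was 1.10 (1.01 to 1.19). Mir487b, the next hairpin after Mir381 in the 5′ to 3′ direction, had 97, 60 and 70 reads and a Dicer cKO/Control ratio of 0.827 (0.599 to 1.14). The high value of Mir381 in Dicer cKO was thus not seen at the listed hairpins on either side of it.

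The order of the 3 libraries for Mir381 was also that of the summed skeletal muscle markers. The summed muscle miRNAs, which include Mir1a, Mir133 and Mir206, were at 43820 RPM in ScxHt, 63438 in Control and 118637 in Dicer cKO. The sum of the 18 muscle marker mRNAs and that of the endothelial markers were in the same order. Among those analysed, some muscle genes departed from it. ScxHt was above Control for Myh4 at 4.70, Actn3 at 1.79, Mylpf at 1.12 and both Mir133a loci at 1.12. Mir1a-1 and Mir1a-2 had 174274 and 174314 reads in Control, so shared reads may enter the miRNA sums at both loci. The muscle miRNAs had a summed Dicer cKO/Control ratio of 1.65 and a Dicer cKO/ScxHt ratio of 2.71, and none of the 8 that were analysed was below 1 in either comparison. Their part in the values of Mir381 and the other members was not tested.

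Among members with more than 1000 reads, Mir541, in an intron of Mirg, had the lowest Dicer cKO/Control ratio. It had 14606 reads in Control, 10565 in ScxHt and 8639 in Dicer cKO, a ratio of 0.678 (0.660 to 0.696) in Dicer cKO and 0.815 (0.795 to 0.836) in ScxHt. Mir668, in an exon of Mirg, had 189, 141 and 109 reads and a Dicer cKO/Control ratio of 0.661 (0.517 to 0.841). For both, Control was highest and Dicer cKO lowest. Mir431, in the Rtl1 exon, had 2728, 2524 and 1930 reads, with a ratio of 0.811 (0.764 to 0.860) in Dicer cKO and 1.04 (0.987 to 1.10) in ScxHt. Mir493, between Meg3 and Rtl1, was among the higher members, with 55, 59 and 74 reads and a Dicer cKO/Control ratio of 1.54 (1.07 to 2.23).

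**Figure D2:**
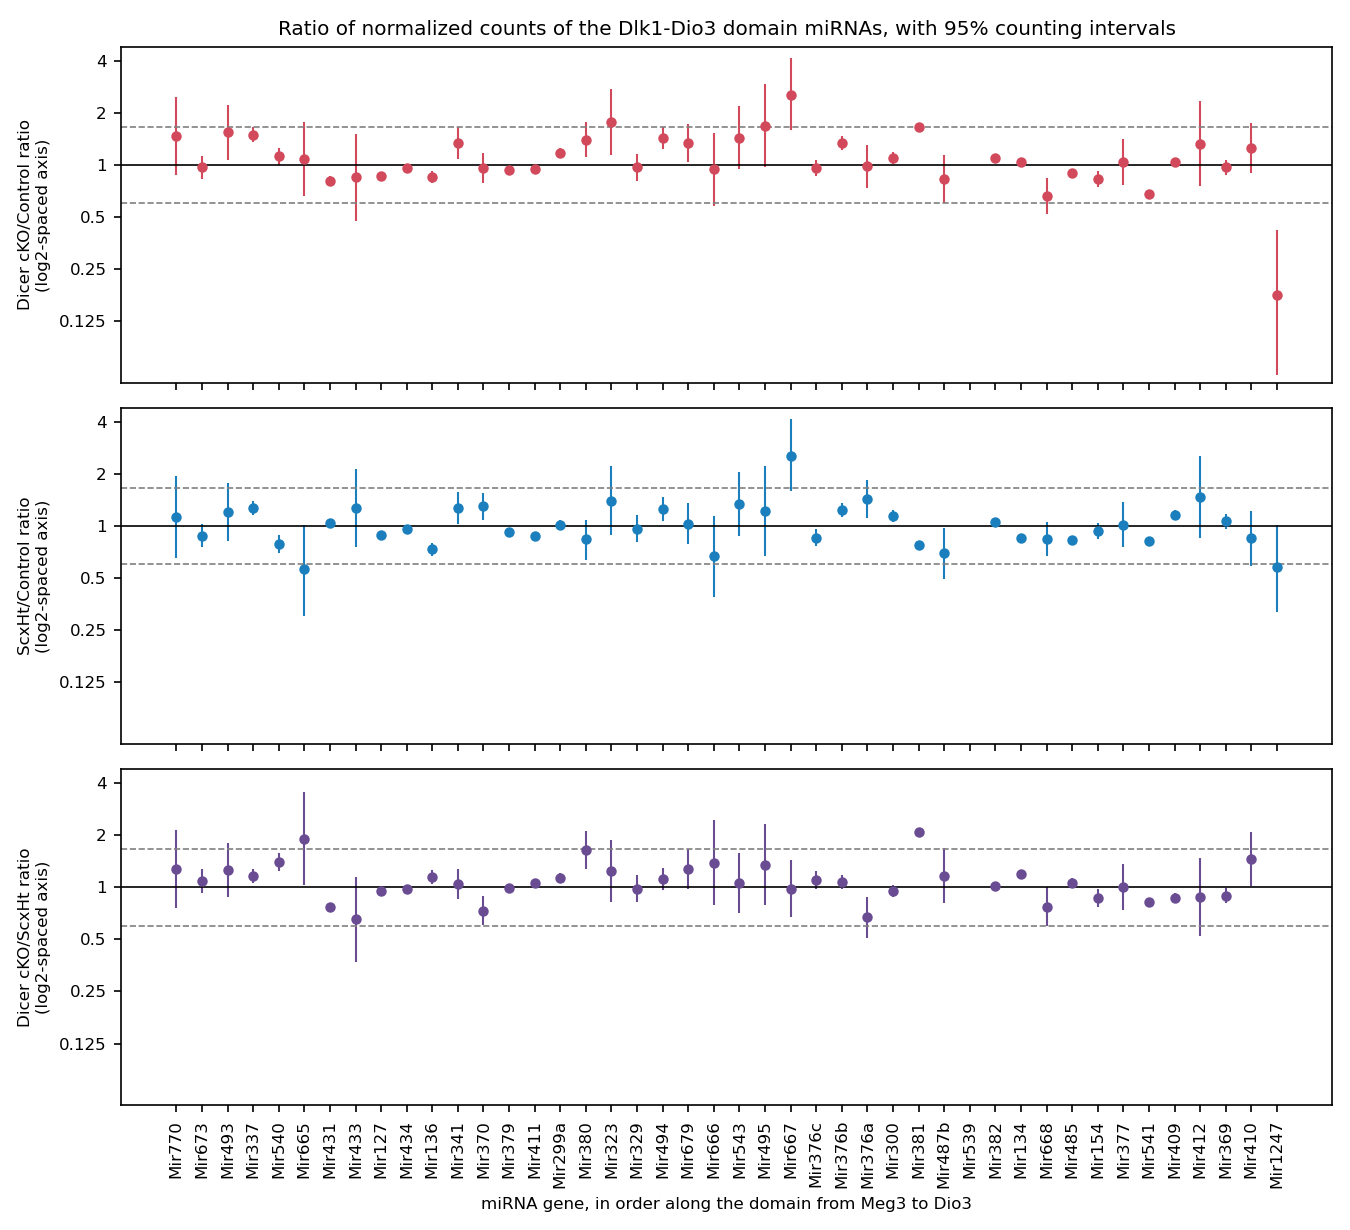
Ratios of normalised counts (log2-spaced axis) of the Dlk1-Dio3 miRNAs with a baseMean above 15, in order along the domain, for the 3 comparisons named on the axes. Bars are 95% counting intervals, the solid line is a ratio of 1 and dashed lines are the fold limits. Ratios above and below 1 both occur along the domain, with Mir493 to Mir665 above 1 and Mir431 to Mir136 below 1 in Dicer cKO/Control, and Mir1247 in Dicer cKO/Control is the point farthest from 1.

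By the counting interval alone, 13 members lay above 1 and 11 below 1 in Dicer cKO/Control, and 19 had an interval that held 1. The background was 31.1% above and 31.7% below, which is close to the members' counts. Members of the same group differed from each other by more than counting error. In the group of 8 at Rtl1 the ratios ran from 0.811 for Mir431 to 1.498 for Mir337, with 1 interval above 1 and 4 below. In the cluster of 30, of which 29 were analysed, they ran from 0.661 to 2.55, with 10 intervals above 1 and 6 below.

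The ratios of the members also differed with their abundance. The 14 members with a baseMean between 15 and 100 had a median Dicer cKO/Control ratio of 1.29, beside 1.03 for the 85 other features of this class. The 15 members between 100 and 1000 had a median of 0.979, beside 1.12. The 14 above 1000 had a median of 0.956, beside 0.911. With size factors, the median member was thus above 1 and the summed reads, which rest on the abundant members, were below Control.

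ScxHt and Control both had functional Dicer alleles, and they differed in the ScxCre allele and in whether Dicer was floxed, which cannot be told apart here. The 43 members analysed had 1 ratio above the upper limit, that of Mir667, and 2 below the lower limit, those of Mir665 and Mir1247. Over all 332 features, 3.01% lay above and 6.93% below, against 2.33% and 4.65% of the members. The median log2 ratio was 0.03, beside −0.02 over all features. By counting intervals, 10 members lay above 1 and 12 below, with a background of 24.4% and 32.8%.

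Mir665, beyond the 3′ end of Rtl1 and on the opposite strand to it, had 36 reads in Control, 18 in ScxHt and 34 in Dicer cKO. ScxHt was lowest, with a ratio of 0.563 (0.301 to 1.02) whose interval held 1. The ScxHt/Control ratio of Mir1247 was 0.578 (0.319 to 1.02), and this interval held 1 as well. Next came Mir666, with 40, 24 and 33 reads and a ratio of 0.676 (0.390 to 1.15), and Mir487b with 0.697 (0.496 to 0.971). Mir136, in the Rtl1 exon, had 1340, 873 and 999 reads and a ratio of 0.734 (0.673 to 0.800), the lowest among members with more than 100 reads in each library.

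At the upper end in ScxHt, after Mir667, stood Mir412, Mir376a, Mir323 and Mir543. Mir412, in an exon of Mirg, had 26, 34 and 30 reads and a ScxHt/Control ratio of 1.47 (0.858 to 2.56). Mir376a had 110, 140 and 94 reads and a ratio of 1.43 (1.11 to 1.86), whereas its Dicer cKO/Control ratio was 0.979 (0.736 to 1.30). Of the others, Mir323 had a ratio of 1.40 (0.889 to 2.22). Mir543 had 43, 51 and 54 reads and a ratio of 1.34 (0.873 to 2.05). Of these 4, only the interval of Mir376a lay above 1.

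Of the pairs that share a seed, Mir376b and Mir376c differed in their ratios. Mir376b had 842 reads in Control, 921 in ScxHt and 985 in Dicer cKO and a Dicer cKO/Control ratio of 1.34 (1.22 to 1.47), whereas Mir376c had 719, 548 and 602 reads and a ratio of 0.960 (0.860 to 1.07). The intervals of this pair did not overlap. Mir494 had 310, 345 and 387 reads and a ratio of 1.43 (1.23 to 1.67). Its seed partner Mir410, the last hairpin of the cluster, had 73, 55 and 80 reads and a ratio of 1.26 (0.903 to 1.75).

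Both comparisons share the Control library, so their values are given side by side without a measure of likeness. With size factors, of 43 members 17 were above 1 in both Dicer cKO and ScxHt, 15 were below 1 in both, and 11 lay on opposite sides. This split was not counted over all features, so it cannot be called particular to the domain. It also rests on the scaling. With size factors 23 members were above 1 in Dicer cKO/Control and 22 in ScxHt/Control, and with total counts 34 and 29 were. Dicer cKO set against ScxHt, which both carry the ScxCre allele, gave 42 analysed members, since Mir1247 had too few reads in these 2 libraries. Of these, 2 lay above the upper limit, Mir381 and Mir665, and 0 below the lower limit, where all 322 features had 11.2% above and 2.17% below. The ratio of Mir665 was 1.89 (1.04 to 3.55). The median log2 ratio was 0.09, beside −0.01 over all features, and 11 intervals lay above 1 and 9 below, with a background of 25.8% and 33.9%. At an intermediate ratio, Mir380 had 136, 101 and 166 reads and a Dicer cKO/ScxHt ratio of 1.64 (1.28 to 2.13).

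**Figure D3:**
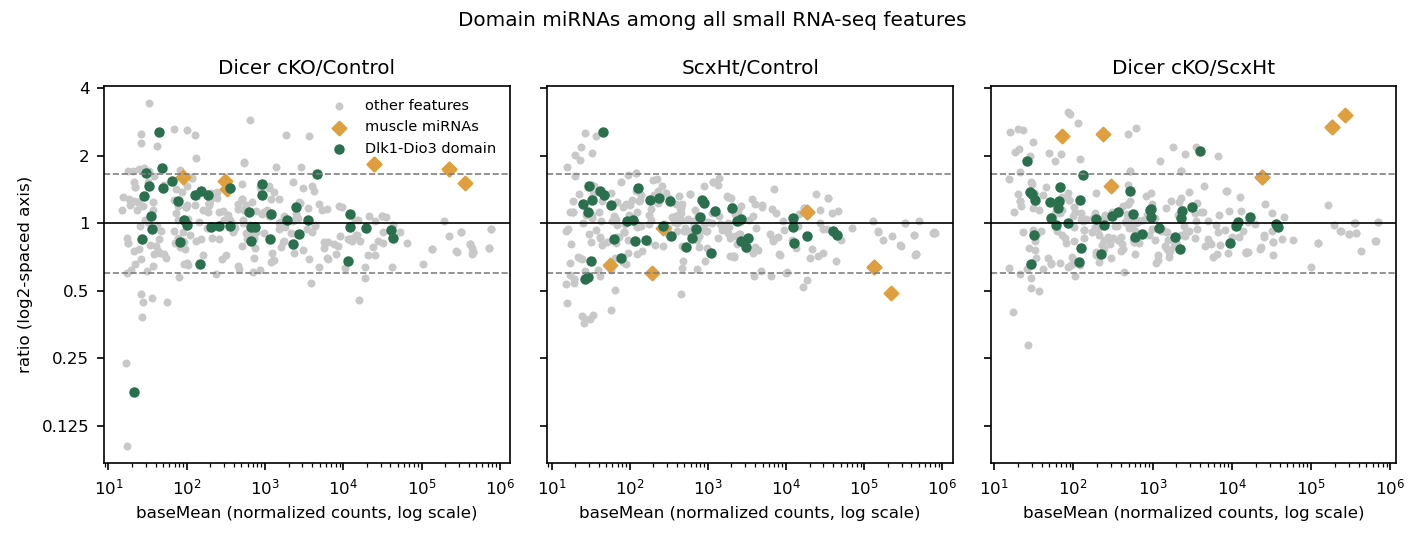
Ratio (log2-spaced axis) against baseMean (log axis) for all small RNA-seq features with a baseMean above 15 in the 3 comparisons, with Dlk1-Dio3 miRNAs in green, muscle miRNAs as orange diamonds and other features in grey. Dashed lines are the fold limits. The domain miRNAs lie within the cloud of other features in each panel, and the muscle miRNAs lie above 1 in both panels with Dicer cKO as numerator.

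The remaining members are given by place. Mir770 at Meg3 had 29, 29 and 37 reads and a Dicer cKO/Control ratio of 1.46 (0.875 to 2.47). Mir673 had 384, 300 and 325 reads and a ratio of 0.970 (0.834 to 1.13). In Rian, Mir341 had 170, 191 and 199 reads and Mir370 had 222, 256 and 187. Both Rian miRNAs were above Control in ScxHt, with ratios of 1.27 (1.02 to 1.57) and 1.30 (1.08 to 1.56), and Mir341 alone was above Control in Dicer cKO, at 1.34 (1.09 to 1.66). At Rtl1, Mir337 had 776, 877 and 1014 reads and ratios of 1.498 (1.36 to 1.65) in Dicer cKO and 1.27 (1.16 to 1.40) in ScxHt.

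Other abundant members of the cluster were close to Control. Mir134, which in neurons acts on dendritic spine size, had 3731 reads in Control, 2839 in ScxHt and 3374 in Dicer cKO, with a ratio of 1.04 (0.989 to 1.09) in Dicer cKO. Mir485 had 3044, 2244 and 2381 reads and a ratio of 0.896 (0.849 to 0.946). Mir299a had 2450, 2216 and 2517 reads and a ratio of 1.18 (1.11 to 1.25). Mir409 had 1999, 2066 and 1803 reads and a ratio of 1.03 (0.969 to 1.10). The last 6 members, Mir540, Mir329, Mir679, Mir154, Mir377 and Mir369, had Dicer cKO/Control ratios from 0.831 for Mir154 to 1.33 for Mir679.

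The long transcripts of the maternal chromosome were abundant, and all 3 had their lowest level in ScxHt under each scaling tried. Meg3, a nuclear non-coding RNA, had 7033 reads in Control, 5822 in ScxHt and 6574 in Dicer cKO. Its Dicer cKO/Control ratio was 0.971 (0.938 to 1.004), with an interval that held 1, and its ScxHt/Control ratio was 0.793 (0.766 to 0.821). With total counts as the scaling these became 1.015 and 0.853, so the side of 1 for Dicer cKO depended on the scaling and that for ScxHt did not.

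Rian, the host of the domain's snoRNAs, had 6308, 5820 and 6566 reads, a Dicer cKO/Control ratio of 1.08 (1.04 to 1.12) and a ScxHt/Control ratio of 0.884 (0.853 to 0.916). Mirg, annotated over the second part of the large miRNA cluster, had 1024, 767 and 969 reads and ratios of 0.983 (0.899 to 1.07) and 0.717 (0.653 to 0.789). Per length, in deposited RPKM, Meg3 was at 23.9, 20.4 and 24.3, Rian at 21.3, 20.2 and 24.1, and Mirg at 8.65, 6.67 and 8.88. Meg3 and Rian were thus at like levels and Mirg lower, in each library. None of the 3 passed a fold limit in Dicer cKO/Control, where 3.92% of 13404 RNA-seq features lay above and 4.19% below, or in ScxHt/Control, where 3.04% and 4.71% of 13462 did. By counting intervals, Rian was above 1 in Dicer cKO/Control, where 21.6% of all features were above and 28.5% below, and all 3 were below 1 in ScxHt/Control, where 26.4% were above and 23.8% below.

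Against ScxHt, Dicer cKO was higher for all 3, at 1.24 (1.20 to 1.29) for Meg3, 1.24 (1.20 to 1.29) for Rian and 1.39 (1.27 to 1.53) for Mirg, all within the fold limits. In this comparison 7.68% of 13455 features lay above the upper limit and 5.68% below the lower one, and 24.9% and 30.6% had an interval wholly above or below 1. Summed skeletal muscle and endothelial markers were also lowest in ScxHt, at the levels given above, and macrophage markers were highest there. Their part in the values of Meg3, Rian and Mirg was not tested.

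RNA-seq reads were also counted over the small RNA genes of the domain. The rows of the 23 snoRNA genes of the domain added up to 493 reads in Control, 386 in ScxHt and 429 in Dicer cKO, a ScxHt/Control ratio of 0.750 (0.655 to 0.859) and a Dicer cKO/Control ratio of 0.904 (0.792 to 1.03). The RNA-seq rows of the 43 plus-strand hairpins, which take in longer RNA over the hairpin rather than the mature miRNA, added up to 587, 460 and 621 reads. Their ScxHt/Control ratio was 0.751 (0.663 to 0.850) and their Dicer cKO/Control ratio 1.10 (0.980 to 1.23). ScxHt was thus lowest for Meg3, Rian, Mirg, the snoRNA rows and the hairpin rows. These rows may hold reads of the long transcripts themselves, so they are not a separate measure. The hairpin sum also includes the 5 hairpins in the Rtl1 exon, whose reads cannot be told apart from those of Rtl1. In small RNA-seq the summed miRNAs had a ScxHt/Control ratio of 0.916. That is nearer to 1 than the RNA-seq ratios, but on the scale of another assay and its own size factors.

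Of the RNA-seq hairpin rows, Mir433 had the most reads, 66 in Control, 55 in ScxHt and 100 in Dicer cKO, at a Dicer cKO/Control ratio of 1.57 (1.14 to 2.18). In small RNA-seq the same gene had 31, 35 and 23 reads and a ratio of 0.850 (0.473 to 1.51). This hairpin lies in the exon of Rtl1, and without a known strand setting its RNA-seq reads cannot be told apart from those of Rtl1. The single minus-strand hairpin, Mir1247, had 0 RNA-seq reads in each library, which allows up to 3.

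**Figure D4:**
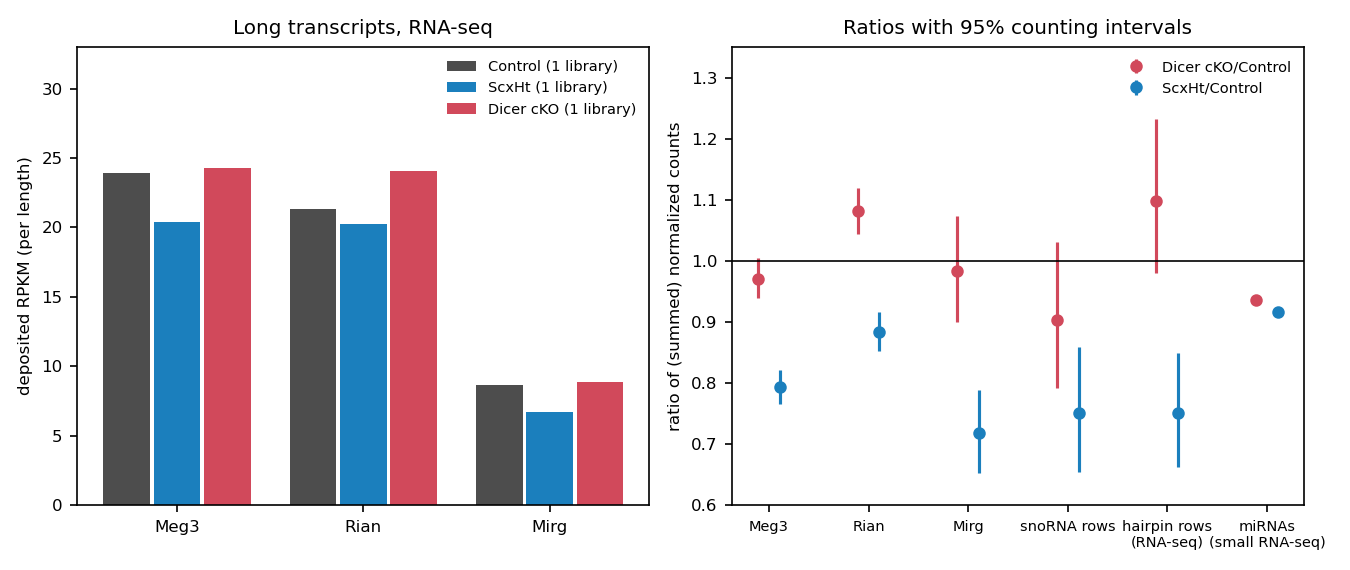
Left, deposited RPKM of Meg3, Rian and Mirg in the Control, ScxHt and Dicer cKO libraries. Right, Dicer cKO/Control and ScxHt/Control ratios of normalised counts for the 3 transcripts, the summed snoRNA and hairpin rows of RNA-seq and the summed miRNAs of small RNA-seq, with 95% counting intervals. ScxHt ratios lie below 1 throughout, from 0.717 to 0.916.

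Of the protein-coding genes of the paternal chromosome, Dlk1 and Dio3 had few or no reads, and Rtl1 was not analysed. Dlk1 had 19 reads in Control, 34 in ScxHt and 20 in Dicer cKO, or 0.207, 0.381 and 0.230 RPKM, and was below the minimum baseMean in each comparison. Its ScxHt/Control ratio was 1.71 (0.9503 to 3.18), so ScxHt was highest but within counting error of Control. Dio3 had 0, 3 and 0 reads, which is at or under the floor of 3 reads, and no ratio was formed. By RPKM, Meg3 was far above Dlk1 in every library.

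Genes that flank the domain or act in related pathways were counted from lists. Of 16 genes that flank it on chromosome 12, 12 were analysed, with Dicer cKO/Control ratios from 0.702 to 1.39. In any of the 3 comparisons, 0 were past a fold limit. Of all features, 3.92% lay above and 4.19% below in Dicer cKO/Control. These shares were 3.04% and 4.71% in ScxHt/Control, and 7.68% and 5.68% in Dicer cKO/ScxHt. With 12 genes, a count of 0 is near such shares. Of 15 genes that keep imprints and DNA methylation, all 15 were analysed. In Dicer cKO/Control, 1 lay above the upper limit and 1 below the lower one (6.67% each), near the 3.92% and 4.19% of all features. Zfp57, a zinc finger protein that holds methylation at imprinting control regions, lay above, with 44, 62 and 80 reads and a ratio of 1.89 (1.29 to 2.79). Aff3, which binds the Dlk1-Dio3 imprinting control region and its enhancer, lay below the lower limit, with 3176, 4435 and 1573 reads and a ratio of 0.514 (0.484 to 0.546). In ScxHt/Control none of these 15 was past a limit, and in Dicer cKO/ScxHt only Aff3 was, at 0.391 (0.369 to 0.414). That is 6.67% of the list below the lower limit, beside 5.68% of all features.

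Of 16 genes of the Notch pathway, 14 were analysed in Dicer cKO/Control, with 1 above the upper limit and 1 below the lower one (7.14% each), beside 3.92% and 4.19% of all features. Hey2, a Notch target, had 29, 53 and 90 reads and a ratio of 3.22 (2.10 to 5.08), and Dll1, a Notch ligand, had 152, 113 and 81 reads and a ratio of 0.553 (0.417 to 0.729). In ScxHt/Control 0 of 13 analysed lay above the upper limit, beside 3.04% of all features, and 2 below the lower one (15.4%, beside 4.71%). The 2 were Notch4 at 0.496 and Dll4 at 0.582, a receptor and a ligand of vessel endothelium. In Dicer cKO/ScxHt 4 of 14 lay above the upper limit (28.6%, beside 7.68% of all features), Notch4 at 2.20, Hey2 at 1.87, Heyl at 1.74 and Dll4 at 1.68, and 1 below the lower limit (7.14%, beside 5.68%), the Notch target Hes1 at 0.569. Endothelial markers ran from 0.601 to 0.792 in ScxHt/Control and from 1.26 to 1.79 in Dicer cKO/ScxHt, and their part in these ratios was not tested.

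Imprinted genes of other chromosomes were counted for comparison. Of 24, 21 were analysed in Dicer cKO/Control, with 3 (14.3%) above the upper limit and 2 (9.52%) below the lower one, beside 3.92% and 4.19% of all features. In ScxHt/Control these were 0 and 2 of 19, and in Dicer cKO/ScxHt 4 and 2 of 20. H19, a maternally expressed non-coding RNA, had 11990, 6343 and 23386 reads and a ratio of 2.03 (1.98 to 2.07). In the same comparison Zim1 and Asb4 had ratios of 1.93 and 1.82, Nnat 0.502 and Dcn, a tendon proteoglycan, 0.542. H19 thus had the library order of the summed skeletal muscle markers and of the summed endothelial markers, lowest in ScxHt and highest in Dicer cKO. Rian had this order with size factors, and Meg3 had it with total counts only. Mirg had it with total counts, with or without features above 1% of a library, but not with size factors. With size factors, the Dicer cKO/Control ratios of Meg3 and Mirg were 0.971 and 0.983, with intervals that held 1. The part of muscle and vessel cells in these values was not tested.

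MEF2 factors are known to act on the Dlk1-Dio3 miRNA promoter in muscle. Of the 3 analysed, Mef2c had 5952, 4414 and 7664 reads, a Dicer cKO/Control ratio of 1.34 (1.29 to 1.38) and a Dicer cKO/ScxHt ratio of 1.91 (1.84 to 1.99). Mef2a was at 0.750 and Mef2d at 0.825 in Dicer cKO/Control. None of these 3 was past a limit against Control, and Mef2c alone lay above the upper limit in Dicer cKO/ScxHt (33.3%, beside 7.68% of all features). Mef2b, below the minimum baseMean, had 24, 45 and 27 reads and a ScxHt/Control ratio of 1.80 (1.07 to 3.08).

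Of 17 further miRNA loci looked up in the small RNA-seq table, 3 were analysed, Mir1193, Mir299b and Mir496a, and 0 were past a fold limit. With 3 loci, this cannot be set apart from the shares of all features past a limit given above. Mir1193, whose mature miRNA shares the seed GGUAGAC with miR-379-5p, had 187 reads in Control, 192 in ScxHt and 184 in Dicer cKO, at a Dicer cKO/Control ratio of 1.13 (0.915 to 1.39). Its level was a small fraction of that of Mir379 in each library.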

How the data were processed

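Per the labels and methods, RNA was taken from the Achilles tendon of 1 mouse per genotype. The authors mapped reads to GRCm38 (mm10) with TopHat and Bowtie2 and deposited HTSeq read counts per feature and, for single libraries, RPKM values. Tool versions, the annotation release, the strand setting and the treatment of reads with several map positions are not given in the sources used here. The counts were used for ratios, the RPKM for levels per length. Repeated lines (463 in RNA-seq, 3 in small RNA-seq) were dropped. The sources used here give no batch or date. Rian has a second line that differs in ScxHt by a few reads, and the first was used.

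Size factors were estimated with DESeq2 1.42.0 in R 4.3.3 on the 2 libraries of each comparison, and exact Clopper-Pearson 95% intervals and figures were made in Python 3.11.15 with scipy 1.17.1, pandas 2.3.3 and matplotlib 3.10.9. No dispersion model or pseudocount was used. A count of 3 or fewer was the floor. The procedure was tested on simulated data. Positions came from GENCODE vM21 and mature sequences from RefSeq. Members, gene lists and tests were chosen with earlier results of these data known. Named were all long transcripts, the 5 members with most reads, the 5 highest and 5 lowest ratios against Control, members past a fold limit, Mir1247 and those sharing a seed. Alternatives were edgeR 4.0.16 TMM, total counts with or without features above 1% of a library, size factors over all 3 libraries or from miRNAs outside the domain, minimum baseMeans of 5, 100 or none, a pseudocount of 1, fold limits of 2 and 0.5, and whole intervals past the limit. The result of 1 gene list is not reported here.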

Additional observations from a re-analysis of the deposited data

How the results depend on the processing

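No paired analysis was possible because each genotype had 1 library per assay and the labels' replicate numbers pair nothing between genotypes; for the same reason no library could be left out. Across 108 recomputed summaries, 85 stayed within counting error or within 1.5 times the reported count, and 23 moved. Of 15 recomputed ratios of the summed members' reads, 12 moved beyond counting error and 3 did not, and of 670 ratios of single genes 99 moved and 571 did not. Total counts shifted the median log2 ratio of all small RNA-seq features from −0.02 to 0.16 in Dicer cKO/Control and to 0.19 in ScxHt/Control. They moved the members' median in ScxHt/Control to 0.24, the members above the upper limit to 6 in Dicer cKO/Control and 2 in ScxHt/Control, and those below the lower limit in ScxHt/Control to 0. The Meg3 ratio became 1.015 in Dicer cKO/Control, 0.853 in ScxHt/Control and 1.19 between Dicer cKO and ScxHt. Total counts without features above 1% gave 5 above in Dicer cKO/Control and 0 below in ScxHt/Control. A minimum baseMean of 100 left 29 members, with 0 above and 0 below in Dicer cKO/Control and in ScxHt/Control, and 1 above in Dicer cKO/ScxHt. A minimum of 5, or none, added Mir1247 as 1 below in Dicer cKO/ScxHt. Fold limits of 2 and 0.5 gave 1 above in Dicer cKO/Control, 0 below in ScxHt/Control and 1 above in Dicer cKO/ScxHt. Requiring the whole interval past the limit gave 0 above in Dicer cKO/Control, 0 above and 0 below in ScxHt/Control, and 1 above, Mir381, in Dicer cKO/ScxHt. Members with few reads limit the depth: 15 or 16 members had under 100 reads in each library. PCR copies were not told apart, so intervals cover counting error only.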
